A study of Mus musculus with 20 samples.

Results

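The genes described here are 9 that are high in newly formed neurons or in dividing cells, out of 21949 genes in the messenger RNA table. They are Sox4, Sox11, Dcx, Tmsb10, Marcksl1, Dpysl3, Igfbpl1, Top2a and Mki67, chosen by symbol, with the values of all transcripts of a gene added up. RNA was sequenced from frozen cerebral cortex of PS19 mice, Tg(Prnp-MAPT*P301S)PS19Vle (TG), which carry human tau with the P301S mutation under the prion protein promoter, and of wild-type (WT) mice. All mice were (C57BL/6 x C3H)F1, and no other allele or agent was named. The groups were TG10M and WT10M at 10 months and TG03M and WT03M at 3 months, with 5 libraries each and 20 in all. The prion promoter is active in neurons and in other cells, so expression of the transgene is not limited to 1 cell type. The libraries carry replicate numbers only, so p-values measure only how far these samples spread, which may be technical in part.

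A neuron that has just left the cell cycle passes through a short immature stage in which the transcription factors Sox4 and Sox11 switch on neuronal genes. During this stage doublecortin (Dcx), Dpysl3, Tmsb10 and Marcksl1 remodel the microtubules and actin of the growing neurites. Top2a and Mki67 are made mainly while a cell copies and separates its chromosomes. In the adult mouse forebrain new neurons arise chiefly in the subventricular zone and the dentate gyrus, and the dividing cells of the adult cortex are mostly glial precursors. Several of the 9 genes are also made at a lower level by mature neurons, glia or vessel cells.

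Values are the authors' FPKM, fragment counts set relative to the length of a transcript and the size of its library. Differences are of log2(FPKM + 0.5) and understate the change of low genes. They come from 1 limma fit over 13722 genes, those whose mean FPKM reached 0.5. A difference was called where its Benjamini-Hochberg adjusted p over all of these genes was under 0.05. Of the 9 genes, 7 passed this filter, and Igfbpl1 and Mki67, below it, were compared with exact permutation tests. From the steps between low values, libraries were estimated to hold 22.6 to 30.1 M fragments each (M, mega). Markers of cortical neurons summed to 2146 to 2438 FPKM in every library, so markers of the labelled tissue were present. Prnp, the gene of the transgene's promoter, was higher in TG by 0.83 at 10 months (SE 0.06, adjusted p = 2.83e-07) and by 0.76 at 3 months (SE 0.06, adjusted p = 1.25e-06). WT10M replicate 5 and TG10M replicates 1 and 5 stood apart on the first principal component. These 3 libraries and TG03M replicates 2 to 5 had 13.9 to 20.5 FPKM of the chaperone Hsp90aa1, against 532 to 687 FPKM in the 13 others. No label sets these libraries apart. In bulk tissue, fewer cells of a type and less RNA per cell cannot be told apart.

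Per length, the 9 genes spanned a wide range of levels. Tmsb10, which encodes an actin monomer binding peptide, was the highest with a mean of 279 FPKM over the 20 libraries, rank 209 of 21949 genes. Marcksl1, a membrane and actin binding substrate of protein kinase C, averaged 40.0 FPKM, and Dpysl3, a collapsin response mediator of growth cones, 12.2 FPKM. Sox4 averaged 6.43 FPKM, Dcx 4.77 FPKM and Sox11 4.41 FPKM. In all 20 libraries each of these stood above the next in the order, except that Dcx was above Sox11 in 12 of 20, so the levels of this pair could not be ordered. The proliferation genes were among the lowest of the set, though detected in every library. Top2a, which untangles DNA during chromosome separation, averaged 0.523 FPKM, and Mki67, which coats mitotic chromosomes, 0.264 FPKM. Igfbpl1, a secreted binding protein made by newborn neurons, averaged 0.271 FPKM and was above Mki67 in 9 of 20 libraries.

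Promoters of 4 genes are given so that both kinds of gene in the set can be seen side by side. Sox4 is the gene with the most regular age difference, Sox11 its close relative, and Top2a and Mki67 stand for the dividing cell. Each window runs from 250 bases before to 50 bases after the RefSeq start on GRCm38.p6, and all 4 are on the minus strand, printed 5' to 3' along the gene. Capitals mark CCAAT, or ATTGG on the other strand, the core of the box bound by NF-Y. They also mark TTTGAA, or TTCAAA on the other strand, and TTCGAA, which reads the same on both strands, the cores of the cell cycle homology region. The windows are chr13:28953650-28953949 for Sox4, chr12:27342669-27342968 for Sox11, chr11:99024140-99024439 for Top2a and chr7:135716330-135716629 for Mki67.
Sox4: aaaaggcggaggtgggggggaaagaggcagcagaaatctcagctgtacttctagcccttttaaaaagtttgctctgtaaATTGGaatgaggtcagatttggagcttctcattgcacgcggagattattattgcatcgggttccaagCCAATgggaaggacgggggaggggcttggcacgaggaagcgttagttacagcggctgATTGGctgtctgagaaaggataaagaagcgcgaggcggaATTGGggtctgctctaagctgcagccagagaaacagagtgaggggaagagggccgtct
Sox11: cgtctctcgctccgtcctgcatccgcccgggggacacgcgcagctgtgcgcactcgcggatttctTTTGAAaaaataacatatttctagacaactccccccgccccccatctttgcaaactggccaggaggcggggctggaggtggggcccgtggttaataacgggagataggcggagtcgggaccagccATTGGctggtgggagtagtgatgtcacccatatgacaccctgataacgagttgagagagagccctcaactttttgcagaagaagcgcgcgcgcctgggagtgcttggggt
Top2a: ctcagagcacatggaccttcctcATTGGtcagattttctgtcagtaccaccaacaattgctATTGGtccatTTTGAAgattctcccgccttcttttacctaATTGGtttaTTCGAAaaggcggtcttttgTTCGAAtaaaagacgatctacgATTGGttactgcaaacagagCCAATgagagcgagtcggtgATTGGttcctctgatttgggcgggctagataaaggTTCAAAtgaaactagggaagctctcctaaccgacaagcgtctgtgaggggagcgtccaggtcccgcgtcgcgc
Mki67: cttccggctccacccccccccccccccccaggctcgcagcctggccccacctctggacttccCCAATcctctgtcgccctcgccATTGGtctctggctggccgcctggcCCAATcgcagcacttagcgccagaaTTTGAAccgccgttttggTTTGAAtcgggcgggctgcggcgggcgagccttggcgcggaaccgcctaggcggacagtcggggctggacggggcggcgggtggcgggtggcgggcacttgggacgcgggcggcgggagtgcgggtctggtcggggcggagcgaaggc

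Top2a held 6 matches to CCAAT, Sox4 4, Mki67 3 and Sox11 1. Over all 32851 promoter windows of this length 37.4% held at least 1 match to CCAAT, 3.37% at least 3 and 0.271% at least 5. TTTGAA was found at 2 places in Top2a, at 2 in Mki67 and at 1 in Sox11, and TTCGAA at 2 places in Top2a. The Sox4 window held neither, and 19.2% of all windows held one or the other. RefSeq windows were matched for 7 of the 9 genes. Marcksl1 held 1 match to CCAAT, Dcx 1 in each of its 2 windows and Tmsb10 0 in its 3 windows, all without TTTGAA or TTCGAA. The letters ACAAAG, a core bound by Sox proteins (CTTTGT on the other strand), were found in 1 of the 2 Dcx windows and in no other window of the set, against 18.7% of all windows. A match is a description of these letters, not a bound site.

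Age was compared within each genotype. Sox4 was lower at 10 months in both genotypes, by about the same amount. Tmsb10 was lower at 10 months in TG cortex. The other tested genes had negative differences in both genotypes without passing the test, and Dcx was close to no difference. The comparison of TG10M with TG03M called 2 of the 7 tested genes, both lower, where 0.204% of the 13722 tested genes were called lower and 0.845% in either direction. WT10M against WT03M called 1 of the 7, Sox4, where 0.0146% of all tested genes were called lower and 0.0656% in either direction. The median difference of the 7 was -0.26 in TG and -0.24 in WT, beside 0.00 and -0.00 over all tested genes. Before adjustment 5 of the 7 had a limma p under 0.05 in TG, as did 2203 of all 13722, and 3 of the 7 in WT, as did 922 of all.

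Sox4 (ENSMUSG00000076431; GRCm38 chromosome 13, 28948919 to 28953713, minus strand) is a single-exon gene for a transcription factor of the SoxC family, expressed in immature neurons and also in glial precursors. It had 6.01, 5.30, 5.83, 5.53 and 5.77 FPKM in TG10M, against 7.34, 6.98, 7.35, 6.78 and 6.21 FPKM in TG03M. In WT10M it had 5.39, 5.72, 5.95, 5.81 and 5.80 FPKM, against 6.89, 7.84, 7.80, 6.67 and 7.60 FPKM in WT03M. The groups of different age did not overlap in either genotype, while those of the same age did. Sox4 fell by 0.26 in TG (SE 0.06, adjusted p = 0.0377) and by 0.33 in WT (SE 0.06, adjusted p = 0.0285). On the FPKM scale the means were 17.9% lower in TG10M than in TG03M and 22.1% lower in WT10M than in WT03M. The difference between these age differences was 0.07 (SE 0.08, adjusted p = 0.980), with a 95% interval of -0.11 to 0.24.

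In WT only 2 genes of 13722 were called lower at 10 months, Sox4 and the receptor gene Met, which fell by 0.53 (adjusted p = 0.0241). The ranges of all 10 libraries per age were 5.30 to 6.01 FPKM at 10 months and 6.21 to 7.84 FPKM at 3 months. Every 10-month library thus lay below every 3-month library. Of all tested genes 0.0292%, or 4 genes, did so, and the other 3 were Ncan, Tsku and Usf2. Groups that did not overlap, with the older lower, made up 1.57% of tested genes in TG and 0.794% in WT. About 809 fragments per library lay behind Sox4 (575 to 1059), which put the counting error at 3.52%.

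The calls of Sox4 within 1 genotype were fragile, while its values were steady. In WT, leaving out any 1 of the 10 WT libraries ended the call, with differences of -0.36 to -0.31 and adjusted p of 0.0546 to 0.133. In TG, leaving out 1 library ended it in 8 of 10 cases, all but TG10M replicate 3 and TG03M replicate 5, with differences of -0.30 to -0.24 over all 10 cases and adjusted p up to 0.106. The mean of both age differences, a comparison added after seeing the data, used all 20 libraries at once. By that comparison Sox4 fell by 0.30 (SE 0.04, adjusted p = 0.000971), which held when any 1 library was left out (adjusted p up to 0.00284). Sox4 ranked 2 by p among the 6898 genes with a negative mean difference.

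**Figure D1:**
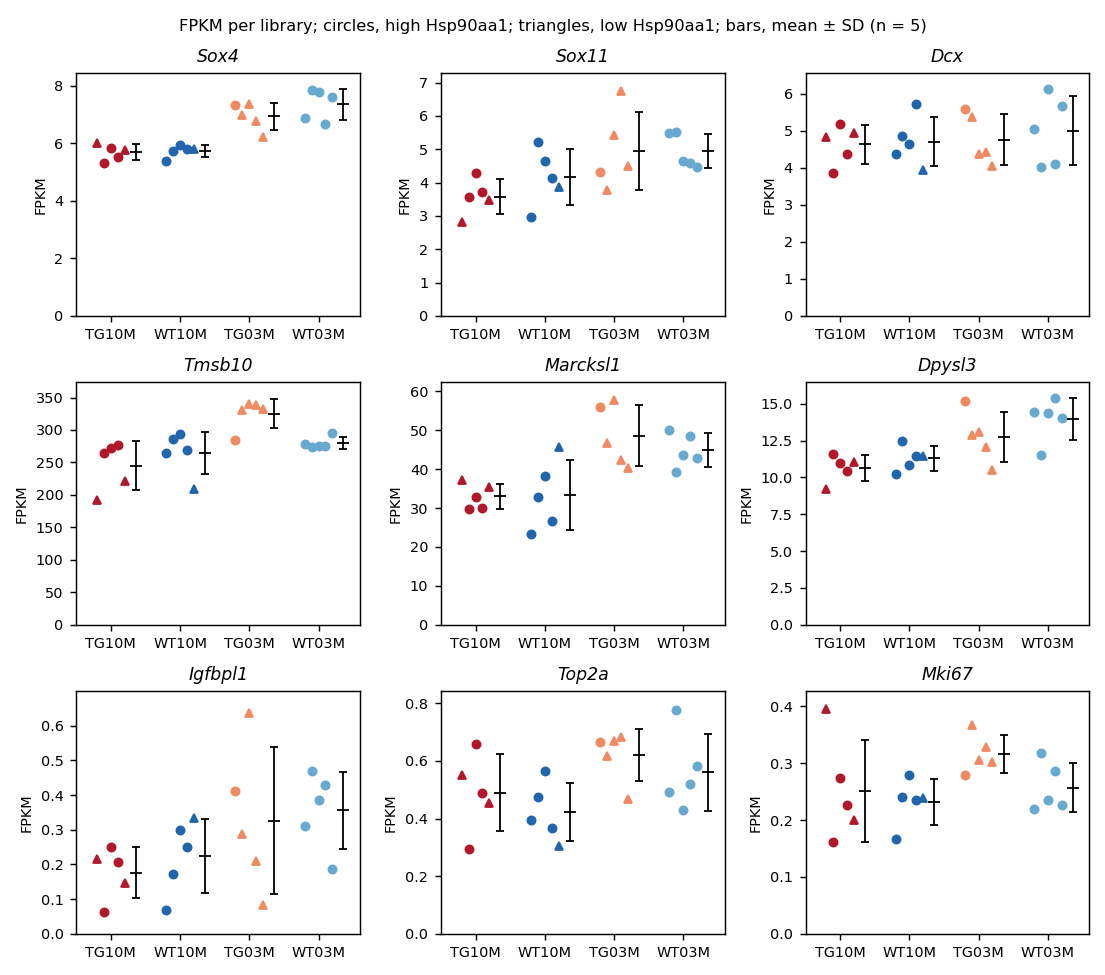
FPKM (linear axis from 0) of the 9 genes in every library, in the order TG10M, WT10M, TG03M, WT03M, with the mean and SD of 5 libraries beside the points. Triangles are the 7 libraries with 13.9 to 20.5 FPKM of Hsp90aa1. The Sox4 points of both 10-month groups, 5.30 to 6.01 FPKM, lie below those of both 3-month groups, 6.21 to 7.84 FPKM, while the Dcx points overlap at both ages.

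Sox11 (ENSMUSG00000063632; chromosome 12, 27334264 to 27342574, minus strand), also a single-exon SoxC gene, acts with Sox4 in the differentiation of newborn neurons. It had 2.83, 3.56, 4.28, 3.73 and 3.48 FPKM in TG10M, against 4.33, 3.77, 5.42, 6.74 and 4.49 FPKM in TG03M. It had 2.95, 5.22, 4.64, 4.15 and 3.87 FPKM in WT10M, against 5.50, 5.53, 4.65, 4.58 and 4.48 FPKM in WT03M. The ages overlapped in both genotypes, and TG03M replicate 4 was the highest of all libraries. The difference was -0.40 in TG (SE 0.14, adjusted p = 0.169) and -0.24 in WT (SE 0.14, adjusted p = 0.832), and neither passed. The mean age difference of Sox11 was -0.32 (SE 0.10, adjusted p = 0.0997), as large as that of Sox4 with an SE over 2 times as wide.

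Marcksl1 and Dpysl3 had age differences in both genotypes that were called only in the comparison over both. This added comparison called 3 of the 7 genes, Sox4, Marcksl1 and Dpysl3, all lower, where 0.561% of tested genes were called lower and 1.75% in either direction. Marcksl1 (ENSMUSG00000047945; chromosome 4, 129513581 to 129515985, plus strand) had 37.1, 29.8, 32.8, 30.1 and 35.5 FPKM in TG10M, against 56.0, 46.7, 57.6, 42.3 and 40.4 FPKM in TG03M. In WT10M the values were 23.2, 32.9, 38.3, 26.7 and 45.5 FPKM, against 50.0, 39.3, 43.6, 48.6 and 42.9 FPKM in WT03M. The ages did not overlap in TG, and in WT only WT10M replicate 5, one of the libraries that stood apart, reached the 3-month range. Marcksl1 differed by -0.54 in TG (SE 0.14, adjusted p = 0.0756) and by -0.46 in WT (SE 0.14, adjusted p = 0.372), both without passing. Over both genotypes it fell by 0.50 (SE 0.10, adjusted p = 0.0155), the largest mean age difference of the 7 genes, and the call held when any 1 library was left out (adjusted p up to 0.0326). Marcksl1 means were 32.0% lower in TG10M than in TG03M and 25.8% lower in WT10M than in WT03M.

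Dpysl3 (ENSMUSG00000024501; chromosome 18, 43320984 to 43438286, minus strand) had 9.21, 11.6, 11.0, 10.4 and 11.1 FPKM in TG10M, against 15.2, 12.9, 13.1, 12.1 and 10.5 FPKM in TG03M. The WT10M values were 10.2, 12.4, 10.9, 11.4 and 11.5 FPKM, against 14.4, 11.5, 14.3, 15.3 and 14.0 FPKM in WT03M. One low library in each 3-month group, TG03M replicate 5 and WT03M replicate 2, made the ages overlap. The difference was -0.24 in TG (SE 0.09, adjusted p = 0.188) and -0.29 in WT (SE 0.09, adjusted p = 0.347). Over both genotypes Dpysl3 fell by 0.27 (SE 0.06, adjusted p = 0.0340). That call was lost in 12 of the 20 cases with 1 library left out, with adjusted p up to 0.0700, and without the 3 libraries that stood apart (adjusted p = 0.127) or the 7 with low Hsp90aa1 (adjusted p = 0.119). The 12 libraries were TG10M replicates 1, 4 and 5, WT10M replicates 1 and 4, TG03M replicates 1, 2 and 3, and WT03M replicates 1, 3, 4 and 5. Of the 5 transcripts listed for Dpysl3, one of 5479 bases carried 68.2 to 70.3% of its FPKM in the group means and one of 2106 bases 29.7 to 31.8%, so the shares were alike in the 4 groups.

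**Figure D2:**
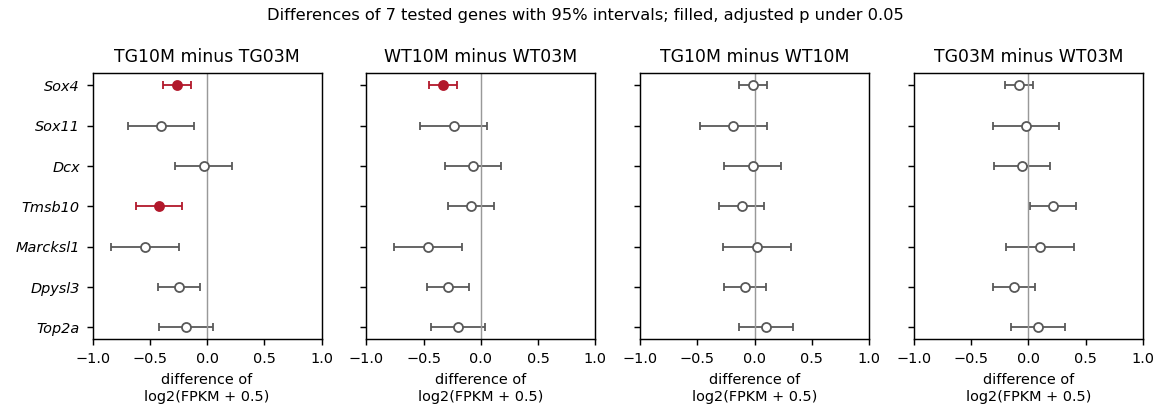
Differences of log2(FPKM + 0.5) with 95% intervals for the 7 tested genes in 4 comparisons, age in each genotype and genotype at each age. Filled points passed an adjusted p of 0.05. All 7 points lie left of 0 in both age panels, and only Sox4 is filled in both. The genotype panels hold no filled point.

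Tmsb10 (ENSMUSG00000079523; chromosome 6, 72957347 to 72958748, minus strand) had levels that moved with the Hsp90aa1 split. It had 192, 264, 272, 278 and 221 FPKM in TG10M, against 285, 330, 340, 339 and 332 FPKM in TG03M. It had 264, 286, 294, 269 and 210 FPKM in WT10M, against 278, 274, 276, 275 and 295 FPKM in WT03M. The ages did not overlap in TG and overlapped in WT. Tmsb10 fell by 0.42 in TG (SE 0.10, adjusted p = 0.0410), and in WT the difference was -0.09 (SE 0.10, adjusted p = 0.903). The difference between these age differences was -0.33 (SE 0.14, adjusted p = 0.962), which did not pass, and its 95% interval was -0.61 to -0.05.

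The 3 libraries that stood apart had 192 to 221 FPKM of Tmsb10, below the 264 to 294 FPKM of the 7 other 10-month libraries. TG03M replicates 2 to 5, also low in Hsp90aa1, had 330 to 340 FPKM, above the 285 FPKM of TG03M replicate 1 and the 274 to 295 FPKM of WT03M. Low Hsp90aa1 thus went with the lowest Tmsb10 at 10 months and with the highest at 3 months. Without the 7 low libraries, which leaves 1 library in TG03M that is assumed to vary like the others, the difference in TG was -0.07 (adjusted p = 0.882). Without the 3 that stood apart it was -0.26 (adjusted p = 0.0354). Leaving out any 1 of the 6 TG libraries with low Hsp90aa1 ended the call, and leaving out any 1 of the 4 others did not. For Sox4 the same removals gave -0.37 in TG (adjusted p = 0.480) without the 7 and -0.29 (adjusted p = 0.0729) without the 3. In WT both removals take out the same 1 library, WT10M replicate 5, so the difference of -0.34 was the same by construction (adjusted p = 0.0556 without the 3). Over both genotypes and without the 7 low libraries, Sox4 was at -0.35 (adjusted p = 0.0701) and Marcksl1 at -0.71 (adjusted p = 0.0529), so both differences were larger and the calls were lost. One transcript carried 97.3 to 98.2% of Tmsb10 FPKM in the group means. Processed copies of Tmsb10 elsewhere in the genome may share its reads, so its level is uncertain.

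**Figure D3:**
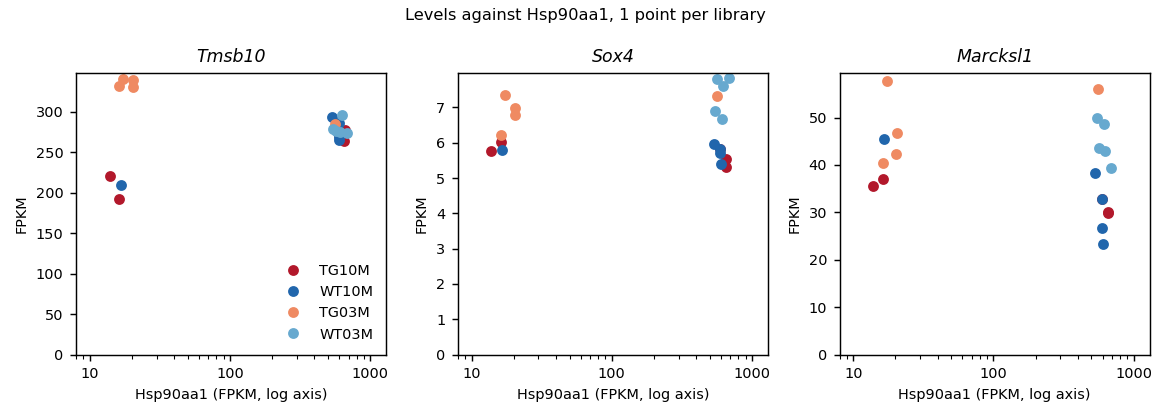
FPKM of Tmsb10, Sox4 and Marcksl1 (linear axes from 0) against FPKM of Hsp90aa1 (log axis), 1 point per library and colours for the 4 groups. At 13.9 to 20.5 FPKM of Hsp90aa1, Tmsb10 is at 192 to 221 FPKM in 10-month libraries and at 330 to 340 FPKM in 3-month libraries. Sox4 of 10-month libraries is at 5.77 to 6.01 FPKM on the low side and at 5.30 to 5.95 FPKM on the high side.

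Dcx (ENSMUSG00000031285; chromosome X, 143855842 to 143933311, minus strand), a microtubule binding protein widely used as a marker of migrating neuroblasts, had age differences near 0. It had 4.84, 3.87, 5.19, 4.36 and 4.93 FPKM in TG10M, against 5.60, 5.36, 4.38, 4.41 and 4.05 FPKM in TG03M. The WT10M values were 4.37, 4.87, 4.64, 5.73 and 3.94 FPKM, against 5.05, 4.02, 6.13, 4.11 and 5.67 FPKM in WT03M. All 4 groups overlapped. The Dcx difference was -0.03 in TG (SE 0.12, adjusted p = 0.905), with a 95% interval of -0.28 to 0.22, and -0.07 in WT (SE 0.12, adjusted p = 0.939), with an interval of -0.32 to 0.18. Its sign turned in TG when any 1 of 3 libraries was left out, up to 0.03. These intervals include the size of the Sox4 difference in TG. The longest Dcx transcript, of 9074 bases, carried 59.6% of its FPKM in TG10M, 67.5% in WT10M, 65.6% in TG03M and 65.5% in WT03M, with SDs of 2.82 to 7.01 percentage points.

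The proliferation genes and Igfbpl1 were measured on fewer fragments than Sox4, Sox11 and Marcksl1. Top2a (ENSMUSG00000020914; chromosome 11, 98992943 to 99024189, minus strand) had 0.550, 0.295, 0.659, 0.490 and 0.453 FPKM in TG10M, against 0.667, 0.617, 0.669, 0.684 and 0.466 FPKM in TG03M. It had 0.394, 0.476, 0.566, 0.369 and 0.304 FPKM in WT10M, against 0.492, 0.778, 0.431, 0.519 and 0.584 FPKM in WT03M. The ages overlapped in both genotypes, and a median of 69.3 fragments lay behind each value. Top2a differed by -0.19 in TG (SE 0.11, adjusted p = 0.404) and by -0.20 in WT (SE 0.11, adjusted p = 0.823).

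Mki67 (ENSMUSG00000031004; chromosome 7, 135689784 to 135716361, minus strand) had 0.395, 0.162, 0.274, 0.226 and 0.199 FPKM in TG10M, against 0.280, 0.366, 0.306, 0.328 and 0.302 FPKM in TG03M. It had 0.167, 0.240, 0.279, 0.236 and 0.239 FPKM in WT10M, against 0.220, 0.318, 0.235, 0.286 and 0.227 FPKM in WT03M. TG10M held both the highest and the lowest library, and the ages overlapped. On log2(FPKM + 0.1) the Mki67 difference was -0.28 in TG (p = 0.119) and -0.11 in WT (p = 0.413) by two-sided exact permutation tests, whose smallest p with 5 against 5 is 0.00794. Igfbpl1 (ENSMUSG00000035551; chromosome 4, 45809468 to 45826923, minus strand) ranged from 0.0642 to 0.251 FPKM in TG10M, against 0.0834 to 0.638 FPKM in TG03M. Its range was 0.0671 to 0.334 FPKM in WT10M, against 0.186 to 0.469 FPKM in WT03M. A median of 17.8 fragments lay behind an Igfbpl1 value, a counting error of 23.7%. The Igfbpl1 difference was -0.52 in TG (p = 0.222) and -0.53 in WT (p = 0.127) by exact permutation tests. Of the 8 exact tests on these 2 genes, none had a p under 0.05, before any adjustment.

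Libraries were also counted over both genotypes, without a test. Of the 10 libraries at 10 months, 10 were below the lowest 3-month library for Sox4, 9 for Marcksl1, 7 for Tmsb10, 5 for Sox11, 4 for Top2a, 3 for Dpysl3 and for Mki67, and 2 for Dcx and for Igfbpl1. The early neuronal genes thus ran from complete separation of the ages for Sox4 to nearly full overlap for Dcx. Of all tested genes 0.0292% had all 10 below, and the shares for lower counts were not computed. The 7 for Tmsb10 include the 3 libraries that stood apart, at 192 to 221 FPKM.

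Genotype was compared at each age. By limma 0 of the 7 tested genes were called at 10 months, where 0.634% of tested genes were called, and 0 at 3 months, where 0.299% were called. Before adjustment 0 of the 7 had a p under 0.05 at 10 months, as did 1933 of all 13722, and 1, Tmsb10, at 3 months, as did 1454 of all. The median difference of the 7 was -0.02 at both ages, beside 0.00 at 10 months and -0.00 at 3 months over all tested genes. At 10 months the differences ran from -0.18 for Sox11 (SE 0.14, adjusted p = 0.552) to 0.10 for Top2a (SE 0.11, adjusted p = 0.717). Sox4 averaged 5.69 ± 0.276 FPKM in TG10M and 5.74 ± 0.209 FPKM in WT10M (SD, n = 5 each). Its difference of -0.01 had a 95% interval of -0.14 to 0.11, which leaves out a difference as large as either of its age differences. Marcksl1 averaged 33.0 ± 3.24 FPKM in TG10M and 33.3 ± 8.94 FPKM in WT10M, where the wide spread came from replicates at 23.2 and 45.5 FPKM. The interval of the Marcksl1 difference, -0.27 to 0.32, was correspondingly wide.

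At 3 months Tmsb10 averaged 325 ± 22.7 FPKM in TG03M and 280 ± 8.94 FPKM in WT03M. This was the largest genotype difference of the 7 genes at that age, 0.22 (SE 0.10, adjusted p = 0.426), with a 95% interval of 0.02 to 0.41. It passed when the 3 libraries that stood apart, all at 10 months, were left out (0.22, SE 0.05, adjusted p = 0.0147). That removal took no library from the 2 groups compared, so the difference stayed the same and only its SE became smaller. The difference was 0.03 when the 7 libraries with low Hsp90aa1 were left out, which leaves 1 library in TG03M. Mki67 averaged 0.316 ± 0.0328 FPKM in TG03M and 0.257 ± 0.0430 FPKM in WT03M, a difference of 0.23 on log2(FPKM + 0.1) with an exact permutation p of 0.0556. At 10 months the Mki67 difference was 0.06 (exact permutation p = 0.810). For Igfbpl1 the genotype differences were -0.20 at 10 months (exact permutation p = 0.524) and -0.21 at 3 months (exact permutation p = 0.611). The test of whether age differences varied with genotype called 0 of the 7 genes by limma, where 0.0364% of tested genes were called. In it 1 of the 7, Tmsb10, had a p under 0.05 before adjustment, as did 691 of all 13722.

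Pathway genes outside the 9 gave the setting. Of 17 transcription factors of neuronal differentiation 16 were tested. Limma called 0 of them with age in either genotype, and 6 in TG and 0 in WT had a p under 0.05 before adjustment. Of all 13722 tested genes 2203 in TG and 922 in WT had such a p. In TG 14 of 16 were negative (median -0.21), and in WT 8 of 16 (median -0.00). The smallest p in TG belonged to Dlx2, a factor of interneuron precursors, at -0.44 (adjusted p = 0.0756), and to Neurod1, a factor of excitatory neurons, at -0.25 (adjusted p = 0.140). Striatal neurons arise from the domain that makes the Dlx factors, and striatal markers summed to 171 to 418 FPKM in TG10M, 383 to 486 FPKM in WT10M, 171 to 468 FPKM in TG03M and 168 to 461 FPKM in WT03M. Their part in the values of the Dlx genes was not tested. Between genotypes at 10 months 14 of 16 factors were also negative (median -0.20), with 0 called and 5 at a p under 0.05 before adjustment, as were 1933 of all 13722 genes.

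Genes of neurite growth and its cytoskeleton had mostly negative age differences. All 20 were tested, and 17 of 20 were negative with age in TG (median -0.10) and 17 of 20 in WT (median -0.07). Limma called 0 in either, and 7 in TG and 4 in WT had a p under 0.05 before adjustment. Of all 13722 tested genes 2203 in TG and 922 in WT had such a p. Dpysl5, a relative of Dpysl3, was at -0.31 in TG (adjusted p = 0.0829). Marcks, the relative of Marcksl1, was at -0.21 in TG (adjusted p = 0.127) and -0.17 in WT (adjusted p = 0.546), and over both genotypes it fell by 0.19 (SE 0.05, adjusted p = 0.0371), the only called gene of the 20. The neural adhesion molecule Ncam1 was at -0.10 in WT (adjusted p = 0.525).

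Cell division genes did not share a direction. Of 32 genes 23 passed the filter, 12 of 23 were negative in TG (median -0.00) and 12 of 23 in WT (median -0.02). Limma called 0 with age, and 6 in TG and 2 in WT had a p under 0.05 before adjustment. Of all 13722 tested genes 2203 in TG and 922 in WT had such a p. The lowest p belonged to the D cyclins, which drive entry into the cell cycle and are also made outside it. Ccnd2 was at -0.68 in TG (adjusted p = 0.166) and -0.54 in WT (adjusted p = 0.666), and Ccnd1 at -0.43 in TG (adjusted p = 0.183) and -0.38 in WT (adjusted p = 0.616). The TG differences depended on the setting. Over the alternatives other than leaving out 1 library, they ran from -0.71 to -0.10 for Ccnd2 and from -0.44 to -0.10 for Ccnd1. Of 10 stem and progenitor genes, all tested, 6 were negative in TG (median -0.12) and 7 in WT (median -0.13), with 0 called and 2 in TG and 3 in WT at a limma p under 0.05 before adjustment. Among these the smallest p in TG belonged to Sox2, at 0.16 (adjusted p = 0.261). In WT it belonged to Nes, which encodes the filament nestin, at -0.32 (adjusted p = 0.602). In the limma tests of genotype, 0 genes of these 4 lists were called at either age. Among those with the smallest p were Dlx6 at -0.68 (adjusted p = 0.160) and the filament gene Vim at 0.45 (adjusted p = 0.104) at 10 months, and the Notch target Hes5 at -0.51 (adjusted p = 0.365) at 3 months.

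**Figure D4:**
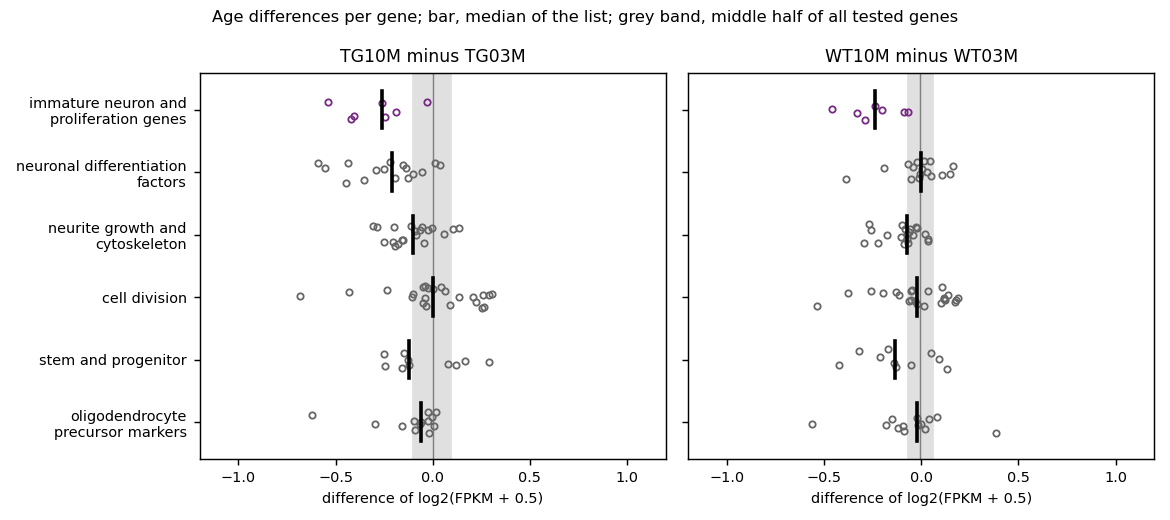
Age differences of log2(FPKM + 0.5) for each tested gene of the set described here, of the 4 pathway lists and of the oligodendrocyte precursor markers, in TG (left) and WT (right). Black bars are list medians and the grey band spans the middle 50% of all tested genes. The set has medians of -0.26 in TG and -0.24 in WT, the cell division list -0.00 and -0.02.

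Markers of other cells that make these genes were set beside the age differences. Oligodendrocyte precursor markers, 13 of 13 listed, summed to 123 to 141 FPKM in TG10M, 116 to 126 FPKM in WT10M, 128 to 152 FPKM in TG03M and 117 to 138 FPKM in WT03M. Their median age difference was -0.06 in TG and -0.02 in WT. Gpr17, which marks precursors committed to become oligodendrocytes, was the 1 marker called with age, and it fell by 0.62 in TG (SE 0.14, adjusted p = 0.0332) and by 0.59 over both genotypes (adjusted p = 0.00289). The part of these cells in the Sox4 difference was not tested. Hippocampal markers, 7 listed, summed to 62.0 to 103 FPKM in WT10M and 99.6 to 144 FPKM in WT03M, a nearly complete separation of the sums. In TG they summed to 62.1 to 91.8 FPKM in TG10M and 64.8 to 92.8 FPKM in TG03M. Only 4 of the 7 passed the filter and were tested. Their median age difference was -0.07 in WT (3 of 4 negative) and 0.06 in TG (2 of 4 negative), with 0 called. The sums thus do not stand for each marker of the list. The part of hippocampal tissue in the Sox4 difference was not tested.

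Microglial markers summed to 268 to 333 FPKM in TG10M, 189 to 278 FPKM in WT10M, 184 to 223 FPKM in TG03M and 181 to 214 FPKM in WT03M, so TG10M differed from TG03M in these too. Choroid plexus markers were high in single libraries, at 17.3 to 418 FPKM in TG10M, 14.9 to 511 FPKM in WT10M, 12.7 to 1043 FPKM in TG03M and 8.35 to 37.8 FPKM in WT03M. Endothelial markers summed to 138 to 163 FPKM in TG10M, 113 to 139 FPKM in WT10M, 127 to 168 FPKM in TG03M and 121 to 164 FPKM in WT03M. Ependymal markers summed to 14.1 to 21.0 FPKM in TG10M, 14.2 to 17.8 FPKM in WT10M, 13.4 to 25.1 FPKM in TG03M and 15.5 to 26.5 FPKM in WT03M. Meningeal markers summed to 34.6 to 49.3 FPKM in TG10M, 24.5 to 38.9 FPKM in WT10M, 35.1 to 47.2 FPKM in TG03M and 28.2 to 46.0 FPKM in WT03M. The median age difference of endothelial markers was -0.17 in WT (6 of 7 negative) and 0.10 in TG (2 of 7 negative). For ependymal markers it was -0.22 in WT (5 of 5 tested negative) and -0.01 in TG (3 of 5 negative). For meningeal markers it was -0.21 in WT (7 of 7 negative) and -0.05 in TG (4 of 7 negative). Limma called 0 markers of these lists with age in either genotype. Cortical neuron markers had a median age difference of -0.19 in TG (6 of 7 negative, 0 called) and of 0.00 in WT (3 of 7 negative, 0 called). No marker was at 0 in all libraries of any group. The part of these cells in the age differences was not tested.

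Genes with the most similar pattern over the 20 libraries were ranked by the root mean square distance between standardized log2 values, where 0 is the same pattern. The nearest to Tmsb10 were Gng3 (0.331), Camsap2 (0.337) and Atp6v0a1 (0.372), and the nearest to Marcksl1 were Cbx8 (0.456), Col23a1 (0.506) and Hspa2 (0.564). Tmsb10 had the closest neighbours of the 7, and the reason was not tested. The nearest to Sox11 were 1810041L15Rik (0.566), Tmem28 (0.591) and Rbmxl1 (0.594), and the nearest to Dpysl3 were Fgfbp3 (0.618), Cpne6 (0.645) and Negr1 (0.652). Sox4 was nearest to Shisa3 (0.621), Zfp57 (0.633) and Pcdhb18 (0.658), Dcx to Fam76b (0.659), Fbn1 (0.670) and Gm10382 (0.671), and Top2a to Mdk (0.720), Gjc1 (0.734) and Ncan (0.739).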

How the data were processed

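Messenger RNA was measured in 20 cortex libraries. Per the labels' protocols, total RNA with a RIN above 7 was sequenced on an Illumina HiSeq 4000. The authors deposited FPKM per transcript. The submitters' processing notes name GRCm38 (mm10), CASAVA, TopHat2, Cuffdiff and DESeq2. Their roles and versions were not found in the sources used here. Neither counts nor strand handling were given. Estimated assignment between transcripts and copied genes can move single values.

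Transcript FPKM were summed per gene (50660 transcripts, 21949 genes), and 27 symbols turned into dates were restored by gene ID. Coordinates are GENCODE M21 on GRCm38. Depth was estimated from steps of low FPKM in 1815 genes with 1 transcript over 4000 bases. Of the 59 to 88 low values used per library 73.1 to 90.5% lay within 0.1 of a whole number, against 20% for an even spread. Each depth was chosen to bring these same values near whole numbers, which raises the share above 20% by itself. These depths are approximate and cover counting error only. The group medians were 24.7 M fragments (M, mega) in TG10M, 25.6 in WT10M, 26.3 in TG03M and 23.5 in WT03M.

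log2(FPKM + 0.5) of 13722 genes was fitted with limma 3.58.1 (lmFit, contrasts.fit, eBayes with trend) in R 4.3.3, two-sided, with a mean for each of the 4 groups, which left 16 residual degrees of freedom. Exact tests used scipy 1.17.1. The fit was tested on simulated data. The 9 genes and all lists were chosen with earlier results of these data known. Named genes were the 9, and per pathway list and comparison up to 4 called genes with the smallest p or, with none called, up to 2; a few of these are given. Gpr17, Met, Ncan, Tsku and Usf2 were named after their values were seen. Alternatives were other pseudocounts, filters and scalings, the replicate number as a block, fits of the compared groups alone, and leaving out libraries. Non-coding RNA tables were not used here.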

Additional observations from a re-analysis of the deposited data

Results flagged for a closer look

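Among 36 groups of 5 libraries, 9 genes in 4 groups, 2 held a library far from the other 4, both for Tmsb10, and chance flags about 1 in 20. Tmsb10 was at 285 FPKM in TG03M replicate 1, against 330 to 340 FPKM in the other 4 libraries of TG03M. That replicate is the only TG03M library with high Hsp90aa1. In WT03M, replicate 5 was at 295 FPKM, against 274 to 278 FPKM in the other 4, all 5 with high Hsp90aa1.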

How the results depend on the processing

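In TG10M against TG03M, where 2 of the 7 genes were called, 1 was called without a filter on low values, with quantile normalization, with the replicate block and without the 3 libraries that stood apart. There 0 were called without the 7 libraries with low Hsp90aa1 and in a fit of the compared groups only, and 0 to 2 with 1 library left out. In WT10M against WT03M the 1 call became 0 with the replicate block, without the 3, without the 7, in a fit of the compared groups only and with any 1 library left out. In TG03M against WT03M, 1 gene was called without the 3 libraries and 0 otherwise. The added comparison over both genotypes called 3 of 7, 2 without the 3 libraries, 0 without the 7 and 2 to 4 with 1 left out. With the block it also called 3, but lost Dpysl3 (adjusted p = 0.0645) and gained Tmsb10 (adjusted p = 0.0469). TG10M against WT10M, the interaction and the exact tests called 0 under all alternatives run. Replicate numbers were not taken to pair the samples, since no comparison had all 5 same-numbered pairs correlated over 0.1: deviations correlated at -0.12 to 0.08 with age in TG, -0.05 to 0.10 with age in WT, -0.17 to 0.66 between genotypes at 10 months, with 3 of 5 pairs over 0.1, and -0.42 to 0.10 at 3 months. In each, 1 of 5 libraries matched its own number best. With the block, Sox4 had an adjusted p of 0.0648 in TG and 0.0991 in WT. Counts over all tested genes moved by over 1.5 times without the 3 libraries (73 for 116 with age in TG, 326 for 87 between genotypes at 10 months, 473 for 41 at 3 months, 86 for 240 over both genotypes). Without the 7 they were 8 with age in TG, 0 for 9 with age in WT, 330 and 9 between genotypes at 10 and 3 months, 3 for 5 in the interaction and 12 over both genotypes. With the compared groups only they were 52 and 1 with age in TG and WT, and 16 and 221 between genotypes at 10 and 3 months. The block gave 5 with age in WT, and no filter gave 22 between genotypes at 3 months. With 1 library left out they were 56 to 154 with age in TG, 1 to 9 in WT, 28 to 1600 and 11 to 108 between genotypes at 10 and 3 months, and 128 to 290 over both. Of 966 alternative values of the 7 genes, 53 lost a call, 6 gained one, and 40 changed sign, all of them uncalled. The cause of these changes was not tested. Counting error was 23.7% for Igfbpl1 at its median depth.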
